A study of Mus musculus with 2 samples.

Results

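The imprinted genes of the growth network are a set of 10 genes, Mest, H19, Igf2, Peg3, Dlk1, Meg3, Grb10, Plagl1, Ndn and Peg10, taken by symbol from the 22558 genes of both expression tables, which held all 10. The set was put together with earlier results of these data known, so the difference between the libraries in these genes is described here and not tested. The RNA came from cells that were freed from breast tumours of the inbred mouse strain FVB and sorted at once by flow cytometry, with no treatment. One library was made from tumour-initiating cells (TIC), the fraction that starts new tumours, and the other from non-tumorigenic cells (NTC). Both groups come from tumours of the same strain. The sources used here do not name the tumour model, the age of the mice, the number of tumours or the gate used for sorting. Each group had 1 library, so there is no replicate, SD or p-value, and each difference is between these 2 libraries only.

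A gene is imprinted when it is read mainly or only from the copy inherited from 1 parent. The parental copies are told apart by DNA methylation set down in the egg or the sperm. Many imprinted genes act on growth before birth. Those read from the father's copy, such as Igf2, Mest, Peg3, Dlk1 and Plagl1, are often linked to growth, while several read from the mother's copy, such as H19, Cdkn1c and Phlda2, are linked to its restraint. A number of them are expressed together in fetal tissue, are turned down after birth and are called a network for that reason. The tables give 1 level per gene and hold nothing on which parental copy was read.

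The sequences of the microRNAs and promoters named below are shown first, because Mest, H19, Igf2 and Meg3 carry microRNAs and because the set is defined by marks on DNA. They are RefSeq sequences of build GRCm38.p6, whereas the gene positions of the expression tables are in build mm9, and the builds are not mixed. Mest carries miR-335 in an intron and H19 carries miR-675 in an exon, and all 4 mature forms are given 5′ to 3′ with the seed, bases 2 to 8, in capitals.
mmu-miR-335-5p: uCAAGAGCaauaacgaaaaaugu
mmu-miR-335-3p: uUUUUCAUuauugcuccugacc
mmu-miR-675-5p: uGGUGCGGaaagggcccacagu
mmu-miR-675-3p: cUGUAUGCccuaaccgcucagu
No seed is shared among these 4. Of the 22 microRNA loci listed for these genes and their clusters, all 22 matched a RefSeq entry, with 43 mature forms and 41 distinct seeds. All 22 were listed at 0 FPKM in both libraries, those inside Mest and H19 included. Of 607 microRNA rows in the tables, 593 (97.7%) were at 0 in both, so these zeros are not read as absence of the microRNA.

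Promoter windows of 300 bases, from 250 before to 50 after the start, were found for 8 of the 10 genes, 15 windows in all because of alternative starts. There was no entry for H19 and Peg10. The 3 windows shown belong to the genes with the largest difference in each direction and to Ndn, which was listed at 0 in NTC, with each CG pair, the site of DNA methylation, in capitals.
Mest, chr6:30737800-30738099, plus strand: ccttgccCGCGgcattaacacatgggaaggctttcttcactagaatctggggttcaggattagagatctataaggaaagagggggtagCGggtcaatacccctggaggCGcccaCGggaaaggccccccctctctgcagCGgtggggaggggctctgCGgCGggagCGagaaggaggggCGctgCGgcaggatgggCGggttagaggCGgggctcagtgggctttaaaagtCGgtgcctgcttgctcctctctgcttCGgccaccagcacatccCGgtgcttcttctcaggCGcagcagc
Ndn, chr7:62348027-62348326, plus strand: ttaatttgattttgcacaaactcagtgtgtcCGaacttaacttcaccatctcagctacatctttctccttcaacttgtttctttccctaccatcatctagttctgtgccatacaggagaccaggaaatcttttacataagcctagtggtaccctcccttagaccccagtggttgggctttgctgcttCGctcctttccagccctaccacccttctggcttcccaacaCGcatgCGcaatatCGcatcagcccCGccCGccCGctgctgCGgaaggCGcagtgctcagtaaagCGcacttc
Peg3, chr7:6730370-6730669, minus strand: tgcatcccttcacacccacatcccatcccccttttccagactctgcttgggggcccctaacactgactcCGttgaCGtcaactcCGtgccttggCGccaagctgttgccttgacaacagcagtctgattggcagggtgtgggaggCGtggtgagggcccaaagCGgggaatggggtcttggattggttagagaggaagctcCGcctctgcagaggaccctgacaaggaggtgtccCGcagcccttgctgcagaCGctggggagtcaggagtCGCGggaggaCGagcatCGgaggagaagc
The Mest window shown, 1 of 3 for this gene, holds 17 CG pairs, the Ndn window 11 and the Peg3 window 13. The median was 7 over 32851 windows of the same length, of which 68.6%, 58.6% and 62.1% held fewer than these. An upstream Mest start has 8 CG pairs, close to that median. Over the 15 windows of the 8 genes the number ran from 1, at a second Meg3 start, to 45, at 1 of the 2 Grb10 starts. The letters TGCCGC, which the imprint-protecting factor ZFP57 is known to bind when methylated, were searched on both strands, and each match includes a CG pair. They occurred in 6 of the 15 windows, belonging to Mest, Igf2, Plagl1, Grb10 and Meg3, and in 11.6% of all windows. Of the Mest windows, that shown and 1 that starts 3 bases further on share their matches, and the upstream one has none. The Ndn and Peg3 windows hold no match, which says only that these letters are not in these windows.

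The sum of all levels was 332935 FPKM in TIC and 376464 FPKM in NTC, where FPKM is fragments scaled to transcript length and to mapped fragments. Low values of short receptor genes place the depth at roughly 21.0 M fragments for the TIC library and 21.6 M for the NTC library. Counting error is therefore small for levels above a few FPKM, but variation between animals or sorts cannot be seen. An exact 0 was listed for 7345 genes in TIC and 7397 in NTC, and is reported as listed at 0. Markers of the basal mammary layer, fixed as a list of 9, summed to 3823 FPKM in TIC and 40.2 FPKM in NTC. The 10 luminal markers summed to 58.1 FPKM in TIC and 3196 FPKM in NTC. The imprinted genes thus differ between libraries that also differ in epithelial lineage, and the part of lineage in their differences was not tested. In bulk RNA of this kind, fewer cells of a type and less RNA per cell cannot be told apart.

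The 10 genes fell into 3 kinds by level. Mest, H19 and Ndn were far higher in TIC, Peg3 was higher in NTC and Grb10 was similar in both, while Igf2, Plagl1, Meg3, Peg10 and Dlk1 were low or nearly silent. Neither library had all 10 genes high or all 10 low. In TIC the levels in FPKM, from the highest, were in the order Mest, H19, Peg3, Grb10, Ndn, Igf2, Plagl1, Meg3, Peg10 and Dlk1. In NTC the order was Peg3, Grb10, Mest, Plagl1, H19 and Meg3, and the other 4 were listed at 0. The levels of the 10 genes summed to 556.5 FPKM in TIC, 84.3% of it from Mest, and to 79.4 FPKM in NTC, 81.5% of it from Peg3. With 1 library each, no spread is available to say which neighbours in these orders differ.

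**Figure D1:**
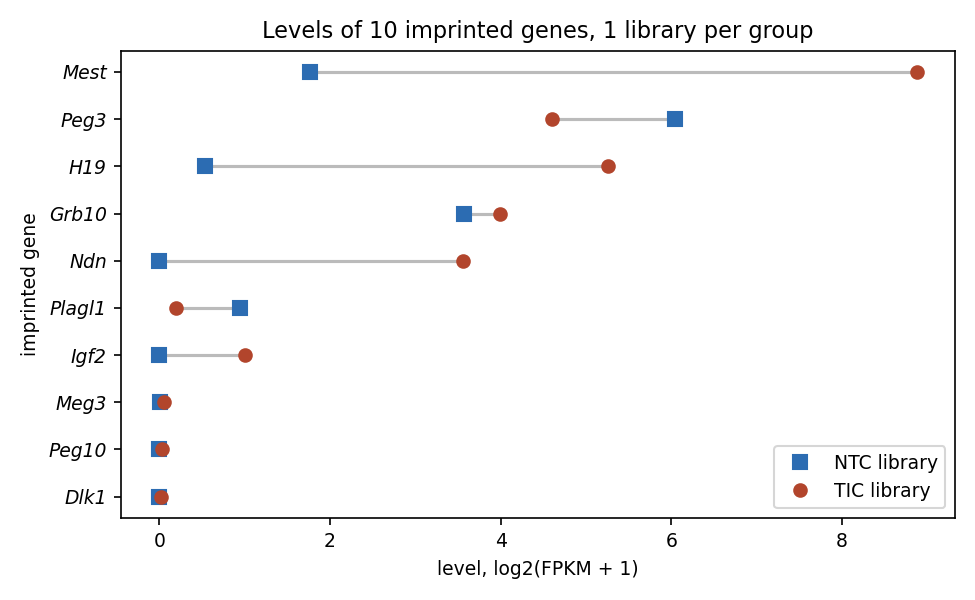
Levels of the 10 imprinted genes as log2(FPKM + 1) on the horizontal axis, with 1 point per library (circles TIC, squares NTC) and genes ordered by mean level. Mest, H19 and Ndn lie far to the right in TIC, Peg3 lies to the right in NTC, and the 3 lowest genes sit near 0 in both.

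Ratios are given as log2((TIC + 1)/(NTC + 1)), which understates the difference of low genes. A gene whose levels average 1 FPKM or more is called measured. Among 12004 measured genes the TIC level was the higher by 2-fold or more for 14.6% and the lower for 13.8%, and the median log2 ratio was -0.16. Of the 10 imprinted genes, 5 were measured. Of these, 3 were higher in TIC by 2-fold or more, 1 was lower to that extent and 1 was within 2-fold. H19 and Ndn passed the filter only through their level in TIC, so they had to be higher there, by whatever margin. The count and the median log2 ratio of 3.55 over the 5 are thus no more than a description. Over all 10, without the filter, the median was 0.24.

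Mest encodes a protein of the alpha/beta hydrolase family, is read from the father's copy and is best known from embryonic mesoderm. Its level was 469.1 FPKM in TIC and 2.39 FPKM in NTC, a plain ratio of 196 and a log2 ratio of 7.12. It was the 70th highest of all genes in TIC, and 17 measured genes had a larger ratio. The NTC level rests on about 138 reads, estimated with the length of the longest annotated transcript. The tables place Mest at chromosome 6, 30688063 to 30846760 (mm9), a locus of 158.7 kb shared with Copg2 and Mir335. Copg2, a coat protein subunit of vesicle transport, had 18.7 FPKM in TIC and 22.3 FPKM in NTC, so the difference was not shared by the gene with the same locus. The sources do not say whether strand was used in counting, and reads where transcripts of Mest and Copg2 overlap cannot be told apart. The 2 genes nearest to Mest in both log2 levels were Trp63, a transcription factor of the basal layer (450.6 against 2.51 FPKM, distance 0.077), and Moxd1 (514.7 against 2.28 FPKM, distance 0.14). This likeness is over 2 libraries only.

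H19 is a long non-coding RNA read from the mother's copy, and its locus lies beside Igf2, with which it shares enhancers. Its level was 37.3 FPKM in TIC and 0.446 FPKM in NTC, a plain ratio of 83.6 and a log2 ratio of 4.73. The NTC value rests on about 22.0 reads, so this ratio is less precise than that of Mest. The locus is at chromosome 7, 149761437 to 149764051 (mm9). The nearest genes in both levels were Pde3a, a phosphodiesterase (36.4 against 0.501 FPKM, distance 0.063), and Slc14a1, a urea transporter (39.3 against 0.538 FPKM, distance 0.12).

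Igf2, the fetal insulin-like growth factor, read from the father's copy, starts 72.6 kb beyond the end of H19 in the tables (chromosome 7, 149836673 to 149856261). It had 1.01 FPKM in TIC, about 100.1 reads, and was listed at 0 in NTC. Its mean was below the filter, and its log2 ratio of 1.01 lay at the 2-fold line. In TIC the level of H19 thus stood far above that of its neighbour, by 37.3 against 1.01 FPKM on the same scale per length. Igf2as and Mir483, which share the Igf2 locus, and Ins2 beyond it were listed at 0 in both libraries.

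Ndn encodes necdin, a growth-restraining protein of the MAGE family that is read from the father's copy in the Prader-Willi region. It had 10.7 FPKM in TIC, about 372 reads, and was listed at 0 in NTC, with a log2 ratio of 3.55 (chromosome 7, 69493163 to 69494813). Its nearest imprinted neighbours were low in both libraries. Magel2, of the same family and 27.1 kb away, was at 0.0433 FPKM in TIC but listed at 0 for NTC, and Mkrn3 had 0.963 FPKM in TIC and 0.0730 FPKM in NTC. Further along this region, Snrpn, which encodes a splicing protein, had 5.28 and 7.33 FPKM and Ube3a, a ubiquitin ligase, had 10.7 and 10.1 FPKM in TIC and NTC. Peg12 of the same region was at 0.868 FPKM in TIC but listed at 0 for NTC. Magel2, Mkrn3 and Peg12 were thus under 1 FPKM in both libraries, with log2 ratios of 0.06, 0.87 and 0.90. Snrpn and Ube3a had -0.41 and 0.08, so by this ratio all of these genes were within 2-fold. The genes nearest to Ndn in both levels were Ccdc3 (10.7 FPKM and listed at 0, distance 0.0055) and Dmrta1 (10.7 against 0.0126 FPKM, distance 0.019).

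Peg3 encodes a large zinc finger protein, read from the father's copy, that acts in cell death and stem cell biology. It was the member with the opposite difference, at 23.2 FPKM in TIC and 64.7 FPKM in NTC, a log2 ratio of -1.44 and a level 2.79 times as high in NTC. By the same estimate the values rest on about 4238 reads in TIC and 12159 in NTC, so counting error is small beside the difference. The locus at chromosome 7, 6658671 to 6683130 (mm9), is shared with its antisense transcript Apeg3, which had 0.599 FPKM in TIC and 2.93 FPKM in NTC. Without strand, reads of Peg3 and Apeg3 cannot be told apart. Usp29, which starts 0.321 kb beyond Peg3 and is read from the father's copy too, had 0.0204 FPKM in TIC and 0.0798 FPKM in NTC. Zim1 on the other side had 0.0902 and 0.264 FPKM. Usp29 and Zim1 were thus below 1 FPKM in both libraries, while Peg3 and Apeg3 were measured and lower in TIC. The genes nearest to Peg3 in both levels were Mrps6, of the mitochondrial ribosome (23.2 against 65.4 FPKM, distance 0.015), and S100a1 (22.9 against 67.9 FPKM, distance 0.072).

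Grb10 encodes an adaptor protein that binds the insulin and IGF1 receptors and dampens their signal, and it is read from the mother's copy in most tissues. It had 14.9 FPKM in TIC and 10.9 FPKM in NTC, a log2 ratio of 0.42, within 2-fold (chromosome 11, 11830502 to 11937423). The nearest genes in both levels were AW549877 (15.0 against 10.8 FPKM, distance 0.015) and Sun1, of the nuclear envelope (15.0 against 11.1 FPKM, distance 0.023). Plagl1 encodes the zinc finger factor ZAC1, known to activate Igf2, H19 and other genes of the network. It had 0.143 FPKM in TIC and 0.929 FPKM in NTC, about 15.8 and 106 reads, with a log2 ratio of -0.76 (chromosome 10, 12810594 to 12851501). Plagl1 was thus below 1 FPKM in both libraries, and its log2 ratio was within 2-fold. A part of Plagl1 in the levels of H19 and Igf2 was not tested.

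Dlk1, Meg3 and Peg10 were close to the limit of detection. Dlk1, a membrane ligand that keeps precursor cells from maturing, had 0.0149 FPKM in TIC, about 1.46 reads, and was listed at 0 in NTC (chromosome 12, 110691033 to 110701546). Meg3, a non-coding RNA read from the mother's copy 77.7 kb from Dlk1, had 0.0391 FPKM in TIC and 0.00473 FPKM in NTC, about 11.9 and 1.49 reads (chromosome 12, 110779206 to 110809939). Rian of the same cluster was at 0.0997 FPKM in TIC but listed at 0 for NTC, and Rtl1, Mirg and Dio3 were listed at 0 in both. The whole cluster was near 0 in both libraries. Peg10, which derives from a retrotransposon and is needed for the placenta, had 0.0241 FPKM in TIC, about 3.37 reads, and was listed at 0 in NTC (chromosome 6, 4697306 to 4710516). Sgce, whose locus ends 0.101 kb from that of Peg10, had 0.0311 FPKM in TIC and 0.0289 FPKM in NTC. At this depth no difference between the libraries was detectable for Dlk1 and Peg10.

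Counting each gene once, 52 genes other than the 10 had a locus within 100 kb of one of them. Of these, 33 were listed at 0 in both libraries and 7 were measured. The measured ones were Copg2, Tsga14, Mrpl23, Apeg3, Ltv1, Phactr2 and Sf3b5. Of all measured genes, 14.6% were higher in TIC by 2-fold or more and 13.8% lower. Apeg3, with a log2 ratio of -1.30, was the only 1 of the 7 that differed by at least 2-fold, and it shares the locus of Peg3. It passed the filter only through its level in NTC. The other 6 ran from -0.71 for Ltv1, a ribosome assembly factor, to 0.61 for Tsga14.

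A wider list of imprinted genes was written for comparison, of which 61 were in the tables and 33 were measured. Its median log2 ratio was -0.08 against -0.16 over all measured genes. By 2-fold or more, 6 genes were higher in TIC and 6 lower, against 14.6% and 13.8% of all measured genes. Within 2-fold were 21, against 71.6% of all measured genes. The largest ratio was that of Dcn, the matrix proteoglycan decorin, with 151.8 FPKM in TIC and 1.51 FPKM in NTC. Cdkn1c, the cell cycle inhibitor p57, had 79.3 FPKM in TIC and 3.18 FPKM in NTC, a log2 ratio of 4.26. Also higher in TIC were Peg13, a non-coding RNA (28.4 against 1.23 FPKM), Nnat, a small membrane protein of the endoplasmic reticulum (13.6 against 2.63), Osbpl5, a lipid transfer protein (13.2 against 3.25), and Phlda2, which restrains placental growth (10.1 against 2.98). Lower in TIC were Gab1, a docking protein of receptor signalling (23.5 against 78.2 FPKM), Cobl, an actin nucleator (3.17 against 19.9), and Slc22a18, a transporter, with a log2 ratio of -1.17. The matrix protein Smoc1 had 0.269 against 11.3 FPKM and Ppp1r9a, a phosphatase partner, 0.202 against 7.23 FPKM. Gatm, an enzyme of creatine synthesis, was listed at 0 for TIC and stood at 9.84 FPKM in NTC. Smoc1, Ppp1r9a and Gatm passed the filter only through NTC, and Phlda2 (0.92) and Slc22a18 (-0.81) were within 2-fold with a pseudocount of 5 FPKM.

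**Figure D2:**
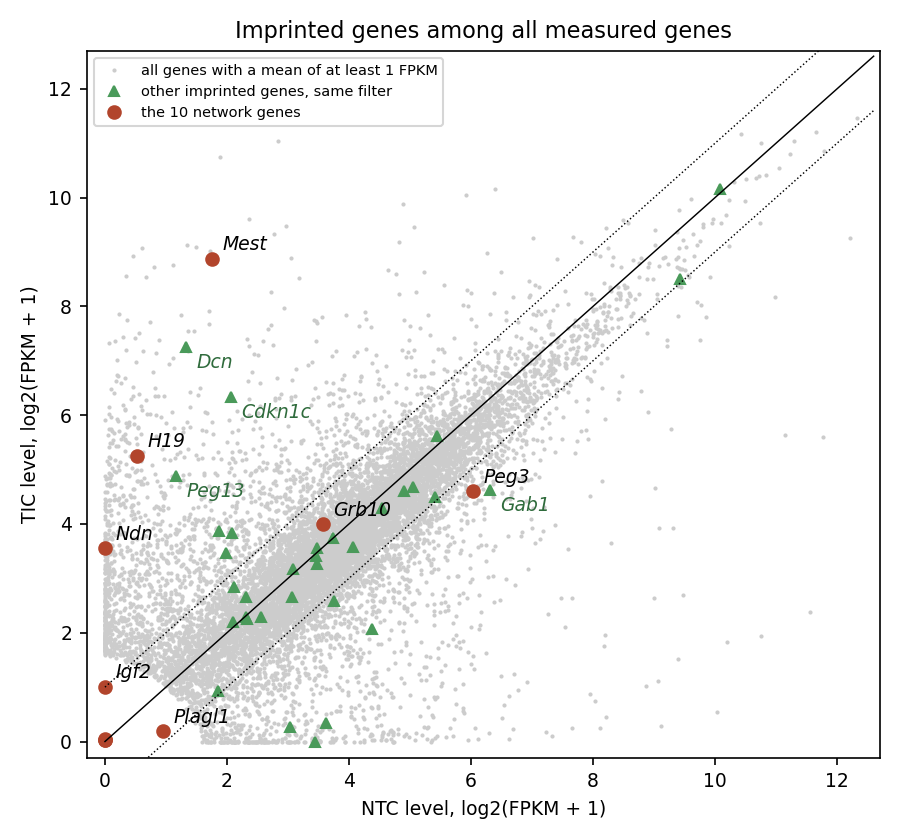
Level in TIC against level in NTC, both as log2(FPKM + 1), for the 12004 measured genes (grey), the 33 measured genes of the wider imprinted list (triangles) and the 10 network genes (circles). The solid line marks equal levels and the dotted lines a log2 ratio of 1 in each direction. Mest, H19 and Ndn lie far above the lines together with Dcn, Cdkn1c and Peg13, and Peg3 lies just below them beside Gab1.

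On distal chromosome 7, H19 and Igf2 stand at the start of a run of 13 listed genes over 1166 kb. Ascl2, Cd81, Tssc4 and Kcnq1ot1 in the middle had log2 ratios from -0.92 to -0.18. Kcnq1ot1, the non-coding RNA whose copy from the father silences its neighbours, had 0.910 FPKM in TIC and 2.62 FPKM in NTC. Its log2 ratio of -0.92 was within 2-fold, and it passed the filter only through NTC. Cdkn1c and Phlda2, which Kcnq1ot1 is known to silence, had log2 ratios of 4.26 and 1.48. A part of Kcnq1ot1 in these differences was not tested. Osbpl5, the last gene of the run, had 1.74, so in this run H19, Cdkn1c, Osbpl5, Phlda2 and, at the 2-fold line, Igf2 were the genes at 1 or above. Slc22a18, between Cdkn1c and Phlda2, had a log2 ratio of -1.17, so direct neighbours differed in direction. Nap1l4, a histone chaperone, was close to even at 0.17.

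**Figure D3:**
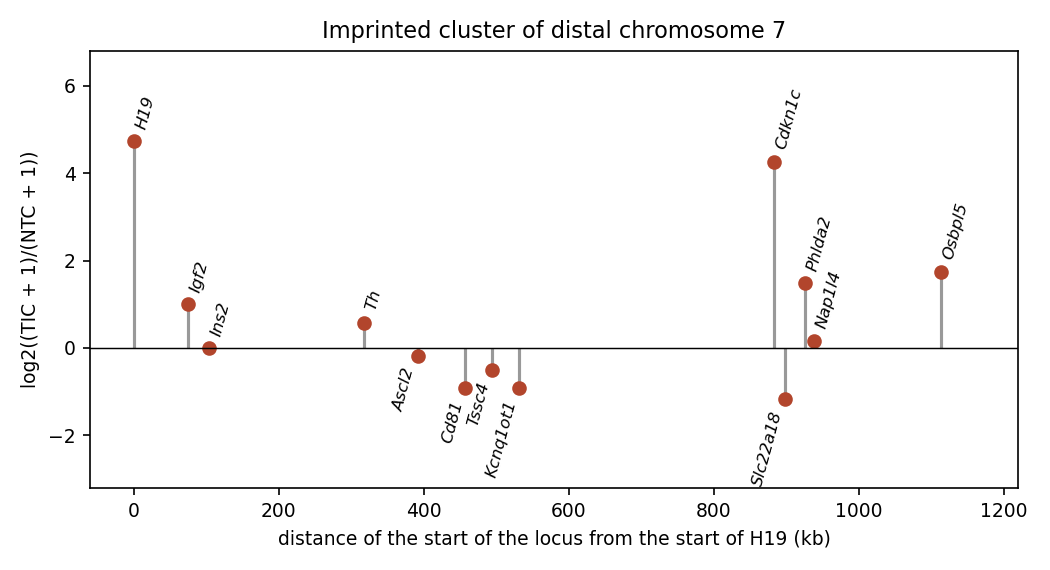
Log2 ratio of TIC to NTC for the 13 listed imprinted genes of distal chromosome 7, against the distance in kb of each locus start from the start of H19. H19 at one end and Cdkn1c, 883 kb away, are the highest, and the genes between 391 and 532 kb lie below 0.

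Several imprinted genes share 1 locus in the tables with a second listed gene, as Mest does with Copg2. There were 8 such pairs, looked at and put in order after their values were seen. In 5 of them the first gene, usually a short or non-coding transcript nested in or beside the other, had a log2 ratio of at least 1. Of these 5 first genes, only Mest, Peg13 and Nnat were measured. The first genes of the 3 other pairs were measured too and were within 2-fold. Of all measured genes, 14.6% were higher in TIC by 2-fold or more. The second gene was within 2-fold in all 8 pairs, from -0.92 for Commd1 to 0.08 for Gnas, as were 71.6% of all measured genes. Peg13 had 28.4 against 1.23 FPKM while Trappc9 had 12.4 in both, and Nnat had 13.6 against 2.63 FPKM while Blcap had 9.68 against 9.98. Nap1l5 (1.57 against 0.0246 FPKM, beside Herc3) and Nespas (1.26 against 0.0705 FPKM, beside Gnas) had means below the filter. In the 3 other pairs, Airn with Igf2r, Zrsr1 with Commd1 and Mcts2 with H13, both genes were within 2-fold. How reads of overlapping transcripts were assigned within such a locus is not given, so the first genes' levels are uncertain to that extent.

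**Figure D4:**
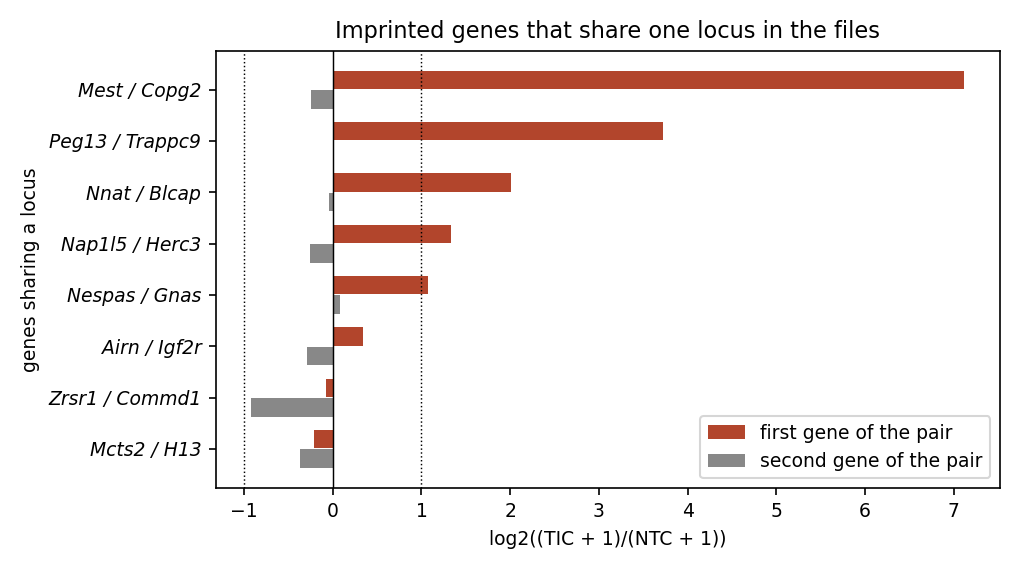
Log2 ratio of TIC to NTC for the 8 pairs of imprinted-list genes that share 1 locus, as bars from 0 (first gene of the pair red, second grey), with dotted lines at a log2 ratio of 1 in each direction. The first genes of the top 5 pairs pass the upper line, and no second gene passes either line.

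Igf2 and Grb10 act on the insulin-like growth factor (IGF) axis, where ligands bind receptors under the control of binding proteins and of proteases that cut these. Of 21 genes of the axis, 13 were measured, of which 7 were higher in TIC by 2-fold or more and 3 lower, against 14.6% and 13.8% of all measured genes. Over the 13 the median log2 ratio was 1.36, and over all 21 it was 0.08. Igfbp2, Igfbp3, Pappa and Htra1 passed the filter only through TIC and Igfals only through NTC, so the direction of these 5 was fixed. Both ligands were low, since Igf1 was listed at 0 for TIC and stood at 0.0347 FPKM in NTC. The receptor Igf1r had 49.0 FPKM in TIC and 18.4 FPKM in NTC and was named after its values were seen. Igf2r, which clears IGF2 and is itself imprinted, had 23.5 and 29.0 FPKM. The binding proteins were divided. Igfbp2 (128.8 against 0.146 FPKM), Igfbp4 (365.8 against 8.06), Igfbp3 (6.51 against 0.0519) and Igfbp7 (27.2 against 8.43) were higher in TIC, while Igfbp5 had 289.2 FPKM in TIC and 2027 FPKM in NTC. Pappa, the protease that frees IGF from IGFBP4, had 169.6 against 0.410 FPKM, and Htra1, another secreted protease, 36.9 against 0.324 FPKM. Irs1, an adaptor downstream of the receptors, was lower in TIC at 21.1 against 93.8 FPKM, as was Igfals, a carrier subunit, at 0.648 against 7.65 FPKM.

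The imprint maintenance list holds 23 genes that set, keep or, as Tet1, Tet2 and Tet3 do, remove DNA methylation, or that act at imprints. Of these, 19 were measured, with a median log2 ratio of -0.16, the same to 2 decimals as that of all measured genes. Within 2-fold were 15 of the 19, near the share of 71.6% among all measured genes. By 2-fold or more, 1 was higher in TIC and 3 lower, against 14.6% and 13.8% of all measured genes. Zfp57, which protects imprints in the early embryo, was at 2.19 FPKM in TIC but listed at 0 for NTC. It passed the filter only through TIC, so it had to be higher there. Its partner Trim28 had 114.8 and 130.0 FPKM, and Ctcf, the insulator protein that separates Igf2 from the enhancers on the mother's copy, had 30.1 and 28.5 FPKM. Lower in TIC were the DNA methyltransferases Dnmt1 (36.8 against 84.2 FPKM) and Dnmt3b (1.71 against 8.42 FPKM) and the helicase Hells (4.96 against 12.2 FPKM). Hells was within 2-fold after centring on the median gene (-0.99), and with a pseudocount of 5 FPKM Zfp57 (0.52), Hells (-0.79) and, at the line, Dnmt3b (-0.999) were too.

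Dlk1 is related to Notch ligands and known as a brake on fat cell formation, and 10 of 12 genes listed around it were measured. By 2-fold or more, 2 of these were higher in TIC and 4 lower, against 14.6% and 13.8% of all measured genes. Dlk2 and Fn1 passed the filter only through TIC and Notch3 only through NTC. Dlk2, its paralogue, had 11.1 FPKM in TIC and 0.0835 FPKM in NTC, although Dlk1 itself was near 0 in both. Fn1, the matrix protein fibronectin, had 12.1 against 0.0849 FPKM. The receptors Notch1 (22.8 against 90.4 FPKM), Notch2 (11.2 against 25.6) and Notch3 (0.181 against 38.0) were lower in TIC, as was the transcription factor Cebpb (16.1 against 34.4). Just within 2-fold were Cebpa, higher in TIC (18.6 against 8.82 FPKM, log2 ratio 0.999), and Sox9, lower (51.2 against 100.6 FPKM, log2 ratio -0.96). Notch2 and Cebpb were within 2-fold after centring, at -0.96 and -0.89, and with a pseudocount of 5 FPKM, at -0.92 and -0.90.

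**Figure D5:**
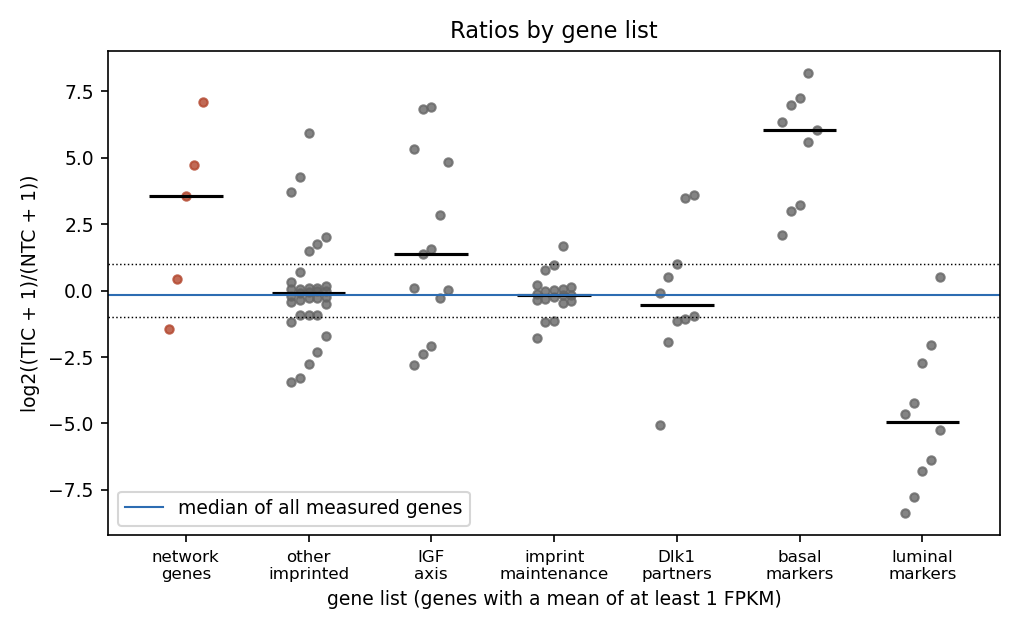
Log2 ratio of TIC to NTC for the measured genes of each list (points), with the list median (black bar), the median of all measured genes (blue line) and a log2 ratio of 1 in each direction (dotted lines). The 5 measured network genes spread from -1.44 to 7.12, the wider imprinted list and the imprint maintenance genes centre near the blue line, the 9 basal markers lie above the upper dotted line, and 9 of the 10 luminal markers lie below the lower one, the exception being Pgr at 0.52.

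H19, Igf2, Dlk1, Meg3 and Dcn are also expressed by fibroblasts and other stromal cells, so markers of other cell types were read beside them. Of 14 fibroblast and pericyte markers, 7 were measured, 6 of them higher in TIC by 2-fold or more and 1 lower, against 14.6% and 13.8% of all measured genes. Of the 6, Col1a2, Pdgfra, Pdgfrb, Fbn1 and Cspg4 passed the filter only through TIC, so they had to be higher there. The list summed to 109.0 FPKM in TIC and 17.7 FPKM in NTC. The largest part was Fbn1, fibrillin, with 43.7 against 0.0803 FPKM. Also higher in TIC were Mcam (30.7 against 5.86 FPKM), Col1a2 (9.56 against 0.0119), Pdgfra (8.83 against 0.513), Cspg4 (8.51 against 0.0332) and Pdgfrb (2.44 against 0.0701), while Postn was lower (3.98 against 10.8). With a pseudocount of 5 FPKM, Pdgfrb (0.55) and Postn (-0.82) were within 2-fold. The 7 markers that were not measured were all below 1 FPKM. Among them, the fibrillar collagens Col1a1 and Col3a1 had 0.459 and 0.221 FPKM in TIC, Lum had 0.573 FPKM in TIC, and Fap, Rgs5, Pi16 and Dpt were listed at 0 in both libraries. The part of such cells in the values of H19 and Dcn was not tested. The 8 endothelial markers summed to 3.23 FPKM in TIC and 1.01 FPKM in NTC, and the 11 leukocyte markers to 2.52 and 2.23 FPKM. The 6 adipocyte markers summed to 0.131 FPKM in TIC and were all listed at 0 in NTC, and the 9 skeletal muscle markers summed to 0.117 and 0.949 FPKM.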

How the data were processed

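RNA of 1 library of tumour-initiating and 1 of non-tumorigenic cells was amplified to cDNA from a small input, per the labels' protocols, which can change a gene's share of reads. The deposited values, made by the authors, are FPKM, 1 per gene and library. Build mm9 and the tools TopHat 1.4.0, CASAVA 1.8.2, Cuffdiff and Cufflinks are listed in the submitters' processing notes with no role or setting. The locus column is headed with a human build although its genes are mouse genes. Positions are given in mm9, counted from 1.

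Ratios, sums and plots were computed with Python 3.11.15, pandas 2.3.3, numpy 2.4.6 and matplotlib 3.10.9, with a pseudocount of 1 FPKM and a filter on a mean of at least 1 FPKM. No count model was fitted. The ratio, filter and call steps were tested on simulated data. Depth was taken from values multiplied by locus length between 0.035 and 0.065 in receptor genes with a locus below 1.5 kb (23 genes in TIC, 39 in NTC). The window limits the estimate. Read estimates use the longest GENCODE transcript, or the locus where that is shorter, and cover counting error only.

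The members and lists were chosen with earlier results of these data known. Named genes are all members, up to 6 genes per list and direction with a log2 ratio of at least 1, genes within 100 kb, and the 2 genes nearest in log2 levels to members with a mean of at least 5 FPKM. Other genes were named for context. Alternatives were pseudocounts of 0.1 and 5, no filter, a filter at 5 FPKM and centring on the median gene.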

Additional observations from a re-analysis of the deposited data

How the results depend on the processing

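The direction of a single ratio cannot change with the pseudocount or the filter. Centring adds 0.16 to each log2 ratio, the size of the median over all measured genes, and so could have turned only Peg3 and Plagl1, which stayed negative at -1.28 and -0.59. The median over the measured members, 3.55 as reported, was 6.10 with a pseudocount of 0.1 FPKM, 1.65 with 5 FPKM, 3.72 after centring and 0.24 with no filter, where the 5 low members enter. Igf2 had a log2 ratio of 3.47 with the pseudocount of 0.1 and 0.27 with 5, and Plagl1 had -2.08 and -0.21, so their sizes depend on that choice. The settings for the wider lists were chosen after seeing the data. With a pseudocount of 5 FPKM, 2 of the genes listed around Dlk1 were at least 2-fold lower, without Notch2 and Cebpb, and 0 of the imprint maintenance genes were higher and 1, Dnmt1, lower. With the filter at 5 FPKM, 0 of the imprint maintenance genes were higher. After centring, 2 of them, Zfp57 and Dnmt3a, were higher, and 2 of the genes around Dlk1 were lower, again without Notch2 and Cebpb. The genes around Dlk1 that were higher became 3, with Cebpa added, both after centring and with a pseudocount of 0.1 FPKM. Counts over the whole table moved in the same direction as these list counts. As reported, 1749 of 12004 measured genes passed the 2-fold line on the TIC side and 1658 on the NTC side. The numbers became 1086 and 921 with the pseudocount of 5 FPKM, 1924 and 1964 with that of 0.1 FPKM, and 1952 and 1356 after centring. With the filter at 5 FPKM they were 1108 and 1175 of 9014. The cause of the changes within the lists was not tested. No paired analysis was possible because each group has 1 library.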
